A study of Mus musculus with 30 samples.

Results

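Macrophages cultured across a transwell membrane from stromal cells were compared with macrophages cultured alone, using 3 libraries of each, so 6 of the 30 libraries of the series. A transwell membrane lets soluble molecules pass while it keeps the cell types apart, so the comparison asks what stromal cells do to macrophages without contact. The members are the libraries that the labels place in these groups, and all 17774 genes with enough counts were tested. Both groups are mouse macrophages sorted on F4/80 after culture, with no drug, and their partners were stromal cells sorted on podoplanin (PDPN+), a surface protein of fibroblast-like and mesothelial cells. The labels give no genotype, strain, age or length of culture and do not say whether replicates came from separate animals, so the p values measure the spread between these samples, which may be technical. Other macrophage groups of 3 libraries each are used beside them: cells analysed ex vivo, cells in direct co-culture with PDPN+ cells, and cells cultured without partners in ATRA, all-trans retinoic acid, at 1 uM. The fits over all macrophage or all PDPN+ libraries also include 3 libraries of each treated with the compound BMS493 at 1 uM. Their levels are not reported here.

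Retinoic acid is made from vitamin A in a pair of oxidation steps, by retinol dehydrogenases such as RDH10 and then by retinaldehyde dehydrogenases such as ALDH1A2, and it diffuses to neighbouring cells. There it binds retinoic acid receptors (RARs) that sit on DNA with retinoid X receptors. Large macrophages of the peritoneal cavity are known to need this signal to keep up the transcription factor GATA6 and its target genes, and stromal cells of the omentum and the cavity lining are a known source of it. Other known stromal signals to macrophages include the growth factor CSF1, chemokines and prostaglandins.

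The 6 libraries held 29769558 to 54099085 counts each and were made from 25000 sorted cells in each culture alone and from 20100, 15880 and 15046 cells in transwell replicates 1, 2 and 3. The RNA integrity numbers were 9.8, 9.6 and 9.2 in cells alone and 9.8, 9.5 and 9.7 in transwell cells. Replicates 1, 2 and 3 of both groups carry the names mbb336, mbb339 and mbb340 in a label field called mbatch, read here as a batch. Replicate 3 stood apart in both groups and in the other cultured macrophage groups. The chi-square per degree of freedom between counts was 539 and 280 for transwell replicate 3 against replicates 1 and 2, and 119 between those. In cells alone it was 470 and 506 for replicate 3 and 198 between the others. Single genes showed it in alone replicate 3: the arginase gene Arg1 lay at 51.8, 141 and 4281 CPM (a count scaled to the library total after TMM scaling) in alone replicates 1, 2 and 3. The chemokine gene Ccl2 lay at 0.915, 2.88 and 459 CPM in the same libraries. Results are therefore also given with batch as a term of the model (the replicate block) and without batch mbb340. The F4/80 gene Adgre1 lay at 2997, 2231 and 1903 CPM in transwell cells and at 3077, 2366 and 2550 CPM in cells alone, so both groups carried the gene of the sort marker.

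In transwell macrophages 5 genes rose and none fell at an adjusted p under 0.05 (edgeR quasi-likelihood test, Benjamini-Hochberg adjusted), which is 0.0281% of the genes tested. They were Selp (P-selectin, an adhesion receptor for leukocytes), Rarb (retinoic acid receptor beta), Cass4 (a scaffold protein of focal adhesions), Mcu (the pore of the mitochondrial calcium uniporter) and Ifitm3 (an interferon-inducible membrane protein that limits virus entry). At an unadjusted p under 0.05 there were 865 genes higher (4.87%) and 835 lower (4.70%). With the replicate block 23 genes rose and 0 fell (0.129% of those tested), and all 5 genes were among them. DESeq2 called 162 genes higher (0.911%) and 100 lower (0.563%), 1.47% in all, and the 5 genes were again among them. Without batch mbb340, 259 genes were higher (1.43%) and 64 lower (0.355%), 1.79% in all, also with the 5 genes among them. A fit of only the 6 libraries with no block called 0 genes by edgeR, with 813 at an unadjusted p under 0.05.

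Selp showed the largest change of the 5. Its level was 574, 298 and 238 CPM in transwell replicates 1, 2 and 3 and 12.6, 10.1 and 15.4 CPM in cells alone. Every transwell library lay far above every library of cells alone, and the fitted change was 28.9-fold (log2 fold change 4.85, SE 0.430, adjusted p = 0.000186). Within batches mbb336, mbb339 and mbb340 the transwell level was 45.6, 29.6 and 15.4 times the level alone. The call held when any 1 of the 6 libraries was left out, with adjusted p values of 0.000161 to 0.00642, and it was lost in the fit of the 6 libraries without a block (adjusted p = 0.135). Because these are bulk samples, more cells with a transcript and more transcript per cell cannot be told apart, here or in the genes that follow.

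Rarb, itself a classical target of retinoic acid, lay at 14.5, 10.5 and 19.7 CPM in transwell cells and at 0.880, 1.07 and 2.83 CPM in cells alone. The lowest transwell library was above the highest library of cells alone, and Rarb rose 9.33-fold (log2 fold change 3.22, SE 0.459, adjusted p = 0.0373, and 0.00842 with the replicate block). The within-batch ratios were 16.5, 9.77 and 6.96 in batches mbb336, mbb339 and mbb340. The call was lost when alone replicate 1 or 2, or transwell replicate 1 or 3, was left out, with adjusted p values of 0.0857 to 0.222.

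The promoters of the 5 genes were read from RefSeq sequence of GRCm38.p6, where all 5 have an entry of 250 bases before to 50 bases after a start site. They were searched on both strands for the DR5 and DR2 retinoic acid response elements, which are direct repeats of the receptor's recognition unit with spacers of 5 and 2 bases, and for an interferon-type motif made of GAAA, any 2 bases and GAAA. DR5 was found in 32 of 32817 promoters in the table (0.0975%), DR2 in 88 (0.268%) and the interferon-type motif in 1126 (3.43%). Of the 5, Rarb held DR5 and Ifitm3 held the interferon-type motif at 2 places, and Selp, Cass4 and Mcu held none of the motifs. Shown first are the 250 bases before the Rarb start site of the RefSeq table, at chr14:16575477-16575726 on the minus strand, with the DR5 match from -53 to -37 in capitals. That start site lies inside the full span of the gene (chr14:16430839-16819156), whose longest annotated transcripts start further upstream. Next come the first 30 bases of the Ifitm3 transcript at chr7:141010715-141010744 on the minus strand, with its matches from 3 to 12 and from 20 to 29 in capitals. Last come the 250 bases before the start of Selp at chr1:164115014-164115263 on the plus strand, which carry no capitals because no motif was found there. A match is a stretch of letters and not a measured binding site.
Rarb: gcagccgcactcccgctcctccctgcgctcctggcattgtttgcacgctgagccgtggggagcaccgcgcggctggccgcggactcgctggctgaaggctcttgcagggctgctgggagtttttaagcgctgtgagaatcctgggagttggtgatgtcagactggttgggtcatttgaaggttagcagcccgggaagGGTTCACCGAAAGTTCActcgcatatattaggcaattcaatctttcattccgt
Ifitm3: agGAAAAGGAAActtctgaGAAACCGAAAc
Selp: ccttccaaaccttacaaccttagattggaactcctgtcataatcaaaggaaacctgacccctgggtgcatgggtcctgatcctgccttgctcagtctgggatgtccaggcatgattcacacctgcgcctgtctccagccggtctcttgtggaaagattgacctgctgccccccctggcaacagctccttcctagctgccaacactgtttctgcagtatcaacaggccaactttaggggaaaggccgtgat

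Cass4 lay at 7.33, 13.3 and 17.8 CPM in transwell cells and at 1.02, 0.602 and 1.69 CPM alone. The groups did not overlap, although the transwell libraries ranged widely, and the change was 11.5-fold (log2 fold change 3.53, SE 0.555, adjusted p = 0.0481, and 0.0281 with the block). Mcu lay at 47.4, 34.5 and 32.0 CPM in transwell cells and at 12, 10.2 and 16 CPM alone. Its change was smaller, 2.95-fold, and the spread within each group was narrow (log2 fold change 1.56, SE 0.233, adjusted p = 0.0436, and 0.0281 with the block). Ifitm3 was the most abundant of the 5 in counts, at 928, 736 and 753 CPM in transwell cells and 178, 311 and 353 CPM alone. It rose 2.85-fold (log2 fold change 1.51, SE 0.238, adjusted p = 0.0481, and 0.0201 with the block), with a ratio of 5.22 in batch mbb336 and of 2.37 and 2.13 in batches mbb339 and mbb340. Leaving out any of 5 libraries ended the calls of Cass4, Mcu and Ifitm3 (adjusted p of 0.0818 to 0.319), and they held without alone replicate 3. RLE scaling put Cass4 and Ifitm3 at an adjusted p of 0.0544, and omitting the low count filter put Mcu at 0.0525 and Ifitm3 at 0.0636.

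**Figure D1:**
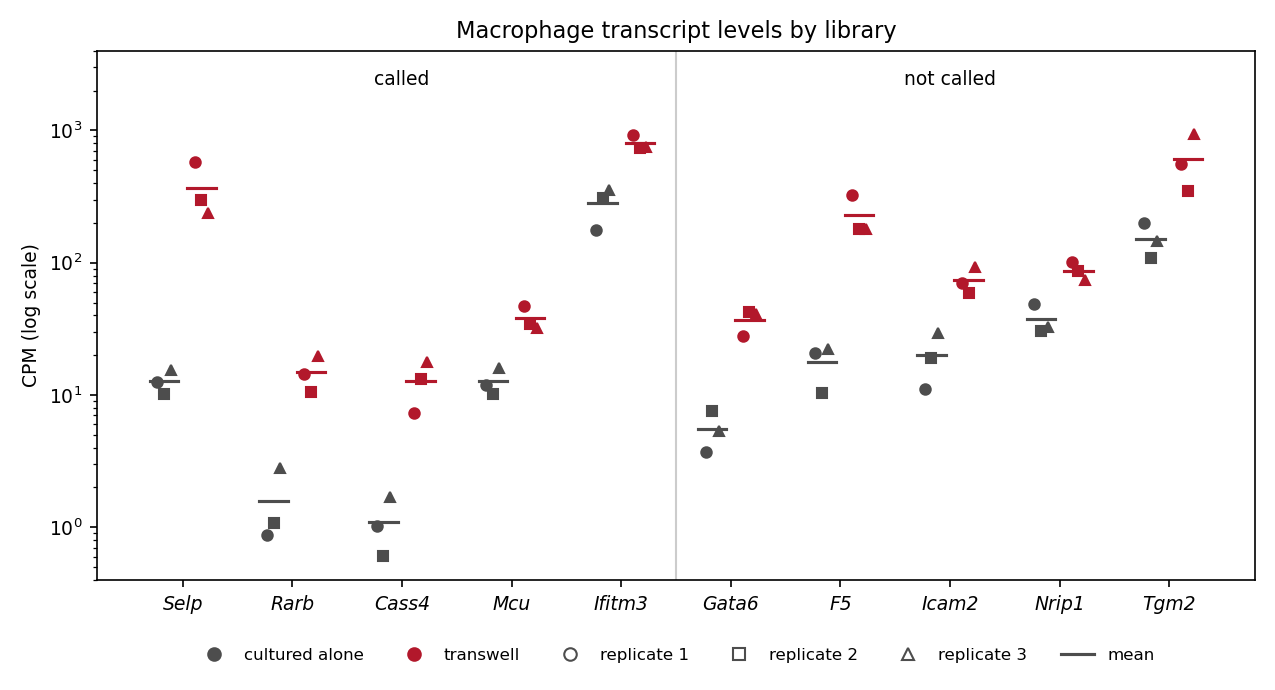
Level of 10 genes in each library, in CPM on a log axis, with cells alone in grey, transwell cells in red, a marker shape for each replicate and a line at each mean. In the 5 called genes on the left and the 5 genes on the right that missed the threshold, the lowest transwell library lies above the highest library of cells alone, as for Selp at 238 against 15.4 CPM. The genes on the right are part of the fixed set of 14 genes, in which Timd4, Tgfb2, Adgre1 and Csf1r overlapped and are not drawn. Of all genes tested, 5.64% were higher in transwell cells without overlap.

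Some called genes lie beside genes with the same direction on the chromosome, a pattern looked for after the values were seen. Selp occupies chr1:164115264-164150026 (plus strand, protein coding), with the coagulation factor V gene F5 starting at 164151838 behind it on the same strand. F5 lay at 325, 180 and 181 CPM in transwell cells and at 20.9, 10.3 and 22.1 CPM alone (12.7-fold, adjusted p = 0.107, and 0.0599 with the block). Every transwell library was thus far above every library of cells alone in F5, which did not pass the threshold. Ifitm6, a relative of Ifitm3 separated from it by 4928 bases on chromosome 7, lay at 91.3, 63.3 and 24.4 CPM against 6.69, 9.15 and 8.42 CPM alone (adjusted p = 0.160, and 0.0415 with the block). The handling of reads shared by related genes is not stated beyond unique alignment, so the split between Ifitm3 and Ifitm6 is uncertain. The antisense gene model Gm16587 lies inside Selp and held at most 11.9 CPM, and whether counting used the strand is not stated. Mcu (chr10:59446984-59616692, minus strand) shares its neighbourhood with the collagen hydroxylase gene P4ha1 and with Oit3, which lay at 5.03, 7.70 and 14.3 CPM against 0.880, 1.96 and 15.3 CPM alone and was not called.

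With the replicate block 18 further genes rose, and their transwell levels exceeded the level alone in each of the 3 batches. A call with the block favours genes with the same direction in every batch, so this agreement adds no separate support. The transcription factor gene Gata6, the master regulator of large cavity macrophages, lay at 27.8, 42.3 and 41.0 CPM in transwell cells and at 3.70, 7.61 and 5.37 CPM alone. The groups were well apart and the within-batch ratios were close to each other, at 7.53, 5.56 and 7.63 (6.54-fold, adjusted p = 0.107, and 0.00591 with the block). Fcgr4, an activating receptor for IgG, lay at 139, 130 and 100 CPM against 11.4, 37.8 and 38.4 CPM alone (4.18-fold, adjusted p = 0.110, and 0.0325 with the block). In Fcgr4 the lowest transwell library lay above the highest library alone. Cd300ld, another receptor of myeloid cells, stood at ratios of 2.17, 2.21 and 2.23 within batches mbb336, mbb339 and mbb340. Its level was 749, 905 and 1413 CPM in transwell cells and 344, 410 and 634 CPM alone, so both groups were highest in batch mbb340.

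The other blocked calls reported by name were of mixed function, with genes of metabolism and signalling among them. Hk2, which encodes the first enzyme of glycolysis, lay at 62.7, 67.4 and 79.2 CPM in transwell cells and at 31.1, 30.5 and 48.7 CPM alone (1.88-fold, adjusted p = 0.252, and 0.0313 with the block). Mlxipl, which encodes the glucose-sensing transcription factor ChREBP, lay at 64.4, 61.9 and 44.2 CPM against 25.2, 11.6 and 4.12 CPM (adjusted p 0.308 and 0.0395). Adssl1, an enzyme of purine synthesis, lay at 111, 130 and 90.8 CPM against 58.9, 46.2 and 55.7 CPM (adjusted p 0.0769 and 0.0325). The changes in these metabolic genes were modest beside that of Camkk1, a kinase that relays calcium signals. Camkk1 lay at 23.4, 14.3 and 18.9 CPM in transwell cells and was counted in 1 library of cells alone, at 0.915 CPM, with 0 counts in the others (adjusted p 0.107 and 0.0456). The protease genes Adam8 (2135 ± 418 CPM against 627 ± 385 CPM, SD, n = 3) and St14 (48.7 ± 11.3 against 16.3 ± 6.85 CPM) also rose with the block. Chst11, a sulfotransferase of chondroitin chains, was the exception in its spread: 1.55, 5.76 and 40.5 CPM against 0.106, 0.223 and 4.19 CPM, overlapping groups with a clear gap in each batch. Akap7, Fam20a, Hivep2, Ifitm6, Nap1l5 and Sntb2 rose with the block as well.

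**Figure D2:**
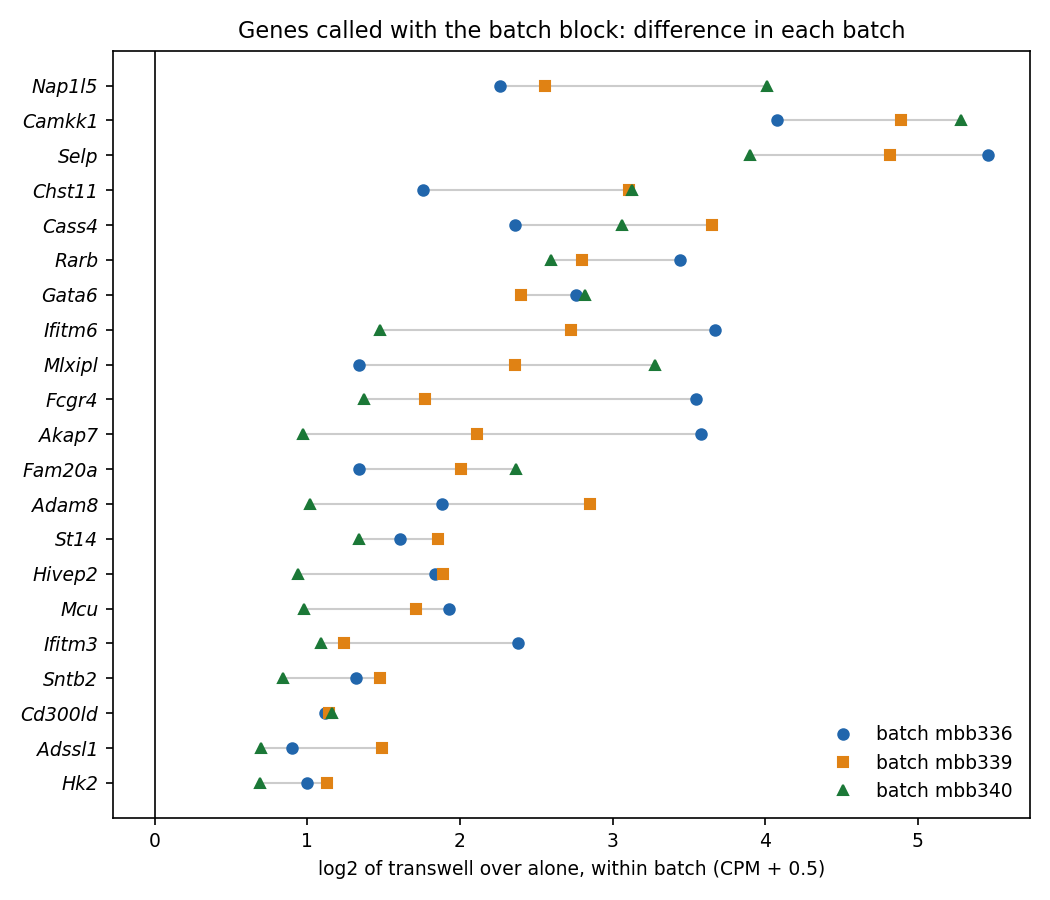
Difference between transwell cells and cells alone within each batch for 21 of the 23 genes called with the replicate block, as log2 of the ratio of CPM after adding 0.5, with 1 marker per batch. All points drawn lie right of 0, from 0.69 for Hk2 in batch mbb340 to 5.46 for Selp in batch mbb336. The call with the block used the same libraries and favours genes that agree across batches.

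No gene fell under the main test or with the block. The 8 genes with the smallest p among those lower in transwell cells, without overlap between groups and with a mean of at least 10 CPM, were Lmo4, Gabarapl1, Gsto1, Gstm1, Sod1, Rab9, Htatip2 and Akip1. Gstm1, a glutathione transferase that detoxifies reactive compounds, lay at 259, 225 and 337 CPM in transwell cells and at 651, 1126 and 629 CPM alone (log2 fold change -1.58, adjusted p = 0.144, 0.0599 with the block and 0.0160 without batch mbb340). Sod1, the cytosolic superoxide dismutase, lay at 21.2, 14.8 and 18.9 CPM against 46.1, 87.4 and 33.1 CPM (adjusted p 0.155, 0.0599 with the block and 0.0264 without batch mbb340). Gsto1, a further glutathione transferase, lay at 73.3, 76.7 and 83.3 CPM against 111, 159 and 124 CPM (adjusted p 0.124, 0.0512 with the block and 0.0690 without batch mbb340). These 3 genes belong to defence against oxidants. A list of 14 genes of that defence holds Gstm1 but not Sod1 or Gsto1. It had 8 members above 0 and 6 below, and 0 called. Without batch mbb340, 1 member was called lower, Gstm1, beside 0.355% of all genes in that fit. The median log2 fold change of the list was 0.02, beside -0.01 over all genes tested. In 3 members transwell cells were lower without overlap and in 0 higher, beside 5.29% and 5.64% of all genes tested. Gabarapl1, an ATG8 family gene of autophagy, lay at 103, 101 and 123 CPM against 191, 251 and 156 CPM (adjusted p 0.110, 0.0599 with the block and 0.0265 without batch mbb340). Akip1 was also called lower without that batch (adjusted p = 0.0239).

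The cavity macrophage programme is a list of 34 genes characteristic of large cavity macrophages, many known to depend on GATA6 or retinoic acid. It had 2 called members, Selp and Rarb, and 3 with the block, which added Gata6, beside 0.0281% and 0.129% of all genes tested. In the list 27 members were above 0 and 7 below, with a median log2 fold change of 1.56. Over all genes tested 8664 were above 0 and 9076 below, with a median of -0.01. In 15 of the 34 genes the groups did not overlap with transwell cells higher and in 0 with them lower, beside 5.64% and 5.29% of all genes tested. Thbs1, a matrix glycoprotein, lay at 6679, 8272 and 8217 CPM in transwell cells and at 1173, 1323 and 5387 CPM alone (adjusted p = 0.603). Icam2, an adhesion ligand, lay at 70.5, 59.0 and 93.3 CPM against 11.1, 19.2 and 29.4 CPM (adjusted p = 0.252). Alox15, a lipoxygenase, lay at 5028, 3117 and 340 CPM against 526, 131 and 50.8 CPM (adjusted p = 0.326). In Alox15 the groups overlapped, since both were lowest in batch mbb340, while within each batch the transwell library was higher. Of the 7 members below 0, Cd5l, a secreted scavenger protein, lay at 89.0, 42.1 and 2.93 CPM in transwell cells and at 318, 59.9 and 0.478 CPM alone (log2 fold change -1.53, adjusted p = 0.833). Icosl, a costimulatory ligand, had a log2 fold change of -1.17 (adjusted p = 0.703). The groups overlapped in both genes. The TGF-beta gene Tgfb2 lay at 34.7, 18.6 and 3.81 CPM against 32.5, 20.4 and 6.29 CPM, and Vsig4, a complement receptor, at 837, 481 and 104 CPM against 1042, 636 and 67.2 CPM. Timd4, a receptor for dying cells, lay at 172, 83.1 and 6.20 CPM against 54.4, 11.2 and 2.98 CPM (adjusted p = 0.695). Without batch mbb340, 13 members were called higher and 0 lower, among them Selp, Rarb, Arg1 and Thbs1, beside 1.43% and 0.355% of all genes in that fit.

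Genes that retinoic acid is known to induce in many cell types had 1 called member, Rarb, among 15 tested of 20. The share called over all genes tested was 0.0281%. The list had a median log2 fold change of 1.21 with 14 members above 0, beside a median of -0.01 over all genes tested. The median stayed at 1.21 with the 3 members that had 0 counts in a group set at their bound. Nrip1, a nuclear receptor corepressor, lay at 102, 86.1 and 73.7 CPM in transwell cells and at 48.7, 30.4 and 32.7 CPM alone (2.31-fold, adjusted p = 0.137, and 0.0466 without batch mbb340). Tgm2, a transglutaminase, lay at 554, 348 and 933 CPM against 200, 109 and 147 CPM (3.96-fold, adjusted p = 0.269). In both genes the groups stood apart without passing the threshold. Cyp26a1, which degrades retinoic acid, lay at 5.15, 0.0790 and 0.385 CPM and had 0 counts in cells alone, so it was at least 71.3-fold higher over a floor of 3 counts in the group (adjusted p = 0.247), a bound carried mostly by replicate 1 and covering counting error only. The receptor genes themselves differed little apart from Rarb: Rara lay at 12.6, 19.5 and 23.0 CPM against 13.7, 14.4 and 19.6 CPM, and Rxra at 40.9, 46.2 and 24.7 CPM against 44.7, 66.8 and 36.5 CPM. Of the 11 genes of nuclear retinoid receptors and their partners, Rarb was called, the same call that is counted in the cavity and retinoic acid lists.

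**Figure D3:**
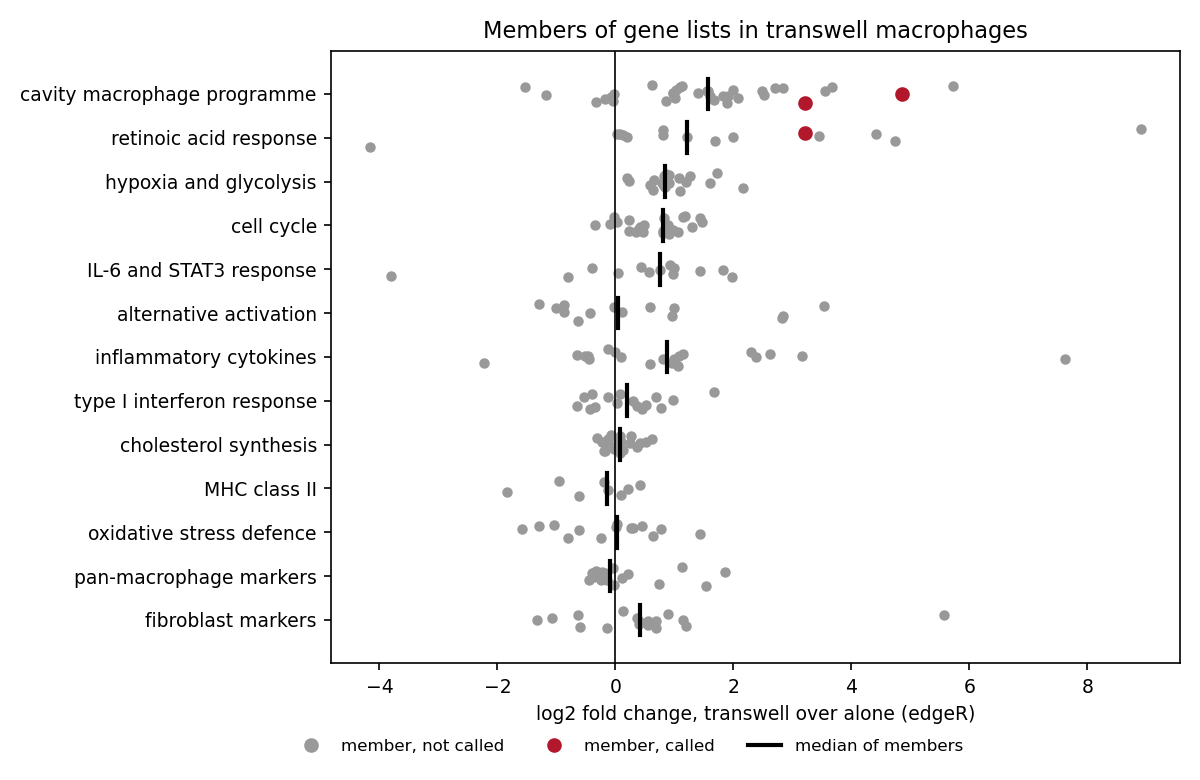
Fitted log2 fold change, transwell over alone, of each tested member of 13 gene lists, with called members in red, other members in grey and a bar at the median of each list. The cavity macrophage programme has its median at 1.56, hypoxia and glycolysis at 0.84 and pan-macrophage markers at -0.10, and fitted values of genes with 0 counts in a group, such as Cyp26a1 at 8.91, depend on the prior count.

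Genes of hypoxia and glycolysis lay above 0 in 21 of 21 cases, with a median log2 fold change of 0.84. None was called without the block and 1, Hk2, with it, beside 0.0281% and 0.129% of all genes tested. At an unadjusted p under 0.05 there were 11 higher and 0 lower, beside 4.87% and 4.70% of all genes. Pfkl, the liver-type phosphofructokinase, lay at 426, 412 and 402 CPM in transwell cells and at 192, 159 and 334 CPM alone (adjusted p = 0.306, and 0.0300 without batch mbb340). Vegfa, the vascular growth factor, lay at 189, 155 and 297 CPM against 53.6, 71.4 and 66.5 CPM (3.30-fold, adjusted p = 0.307). Ldha, lactate dehydrogenase A, lay at 1547, 1883 and 2851 CPM against 398, 609 and 1740 CPM (adjusted p = 0.496). Several of these genes were high in alone replicate 3, and without batch mbb340 8 of the 21 were called higher, beside 1.43% of all genes. The transwell libraries also came from fewer sorted cells, 15046 to 20100 against 25000, and the part of this in the result was not tested.

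Growth and survival genes were called in part once batch mbb340 was left out. None of the 25 cell cycle genes was called, and 22 lay above 0 with a median of 0.81. Top2a, a topoisomerase of dividing cells, lay at 21.6, 32.8 and 10.9 CPM in transwell cells and at 3.91, 1.96 and 20.9 CPM alone, so its direction turned in batch mbb340. Without that batch 6 cell cycle genes were called higher, beside 1.43% of all genes. Of 13 genes of CSF1 and survival signals 0 were called, with 11 above 0 and a median of 0.73, and 4 were called higher without batch mbb340. Bcl2, which holds off cell death, lay at 23.4, 28.6 and 29.2 CPM against 9.22, 6.67 and 14.8 CPM (2.62-fold, adjusted p = 0.252, and 0.0234 without batch mbb340). The matrix gene Fn1, fibronectin, lay at 6978, 10646 and 8805 CPM against 392, 199 and 3168 CPM (7.05-fold, adjusted p = 0.308, and 0.00868 without batch mbb340). Arg1, an enzyme of alternatively activated macrophages, lay at 6538, 8874 and 16324 CPM against the levels alone given above. Its within-batch ratios were 126, 62.9 and 3.81 (adjusted p = 0.519, and 0.0167 without batch mbb340). The alternative activation list that holds Arg1 had 7 of 14 tested members above 0 and 7 below, with 0 called. Its median log2 fold change was 0.04, beside -0.01 over all genes tested. Without batch mbb340, 2 of its members were called higher, beside 1.43% of all genes. Fn1 and Arg1 stood apart strongly in batches mbb336 and mbb339 and much less in batch mbb340, where alone replicate 3 carried high levels. Bcl2 had more even ratios of 2.54, 4.28 and 1.98.

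Other response lists gave no call under the main test, and some did without batch mbb340. In that fit 3 inflammatory cytokine genes were called higher (Ccl2, Ccl4 and Ccl7), 2 of IL-6 and STAT3 response (Socs3 and Stat3) and 5 of the 14 tested for ER stress, beside 1.43% of all genes. In the list of 16 type I interferon response genes 10 lay above 0, with a median of 0.19. That list does not hold Ifitm3 or Ifitm6. Oasl1, an antiviral gene, lay at 1.77, 1.34 and 3.43 CPM against 0.423, 0.513 and 1.10 CPM (adjusted p = 0.474). MHC class II genes had a median of -0.15 over 8 genes, and cholesterol synthesis genes a median of 0.08 over 21. Inflammatory cytokine genes had a median of 0.88 over 20 genes with wide spread, as in Il1b, which lay at 3.14, 5.72 and 361 CPM against 2.36, 5.47 and 52.3 CPM. The 13 IL-6 and STAT3 response genes had a median of 0.75, and Socs3, the feedback inhibitor of that pathway, lay at 185, 163 and 133 CPM against 22.6, 34.9 and 77.6 CPM (adjusted p = 0.363, and 0.0110 without batch mbb340).

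The PDPN+ cells on the other side of the membrane carried the transcripts of retinoic acid synthesis, here given as the authors' size-factor-adjusted RPKM, which is per length and so allows genes to be compared. Aldh1a2 lay at 86.1, 108 and 130 RPKM in PDPN+ transwell cells, against 3.03 ± 1.38 RPKM in the macrophages facing them and 0.623 ± 0.334 RPKM in macrophages alone (SD, n = 3). Rdh10 lay at 8.65, 19.6 and 29.8 RPKM in PDPN+ transwell cells and at 1.99 ± 0.597 RPKM in the macrophages. Aldh1a1, a related dehydrogenase gene, lay at 95.8, 93.1 and 12.1 RPKM in PDPN+ cells and was nearly absent from macrophages at 0.0179 RPKM. The transcripts of these 3 enzymes were thus more abundant on the stromal side of the membrane than in the macrophages. In macrophages Aldh1a2 lay at 4.04, 6.12 and 10.2 CPM after transwell culture and 1.87, 0.535 and 1.80 CPM alone (4.80-fold, adjusted p = 0.178, and 0.0599 with the block).

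Other signals were also transcribed by the PDPN+ cells. Saa3, an acute phase protein, was the highest at 5903, 3602 and 3723 RPKM, and the chemokine Ccl2 lay at 346, 418 and 449 RPKM. Csf1, the growth factor that macrophages depend on, lay at 34.4, 133 and 178 RPKM, and its receptor gene Csf1r lay at 447 ± 259 RPKM in transwell macrophages and 512 ± 375 RPKM alone. Cxcl12, a chemokine of stromal niches, lay at 115, 176 and 148 RPKM. Among its receptors in macrophages, Ackr3 lay at 4.75, 4.18 and 48.6 CPM after transwell culture and at 0.176, 0.424 and 0 CPM alone (adjusted p = 0.110, and 0.0599 with the block), while Cxcr4 was at 5.39 ± 2.83 against 16.5 ± 8.33 RPKM (adjusted p = 0.346). Of 35 tested receptor genes for stromal ligands, 0 were called, beside 0.0281% of all genes tested, with 22 above 0 and a median of 0.34. Without batch mbb340, 1 receptor gene was called higher and 1 lower, beside 1.43% and 0.355% of all genes in that fit. In PDPN+ cells the presence of macrophages across the membrane gave 0 calls among 19134 genes (426 at an unadjusted p under 0.05, and 0 with the block), including Saa3, which averaged 892 ± 200 RPKM in PDPN+ cells alone (log2 fold change 2.34, SE 0.913).

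**Figure D4:**
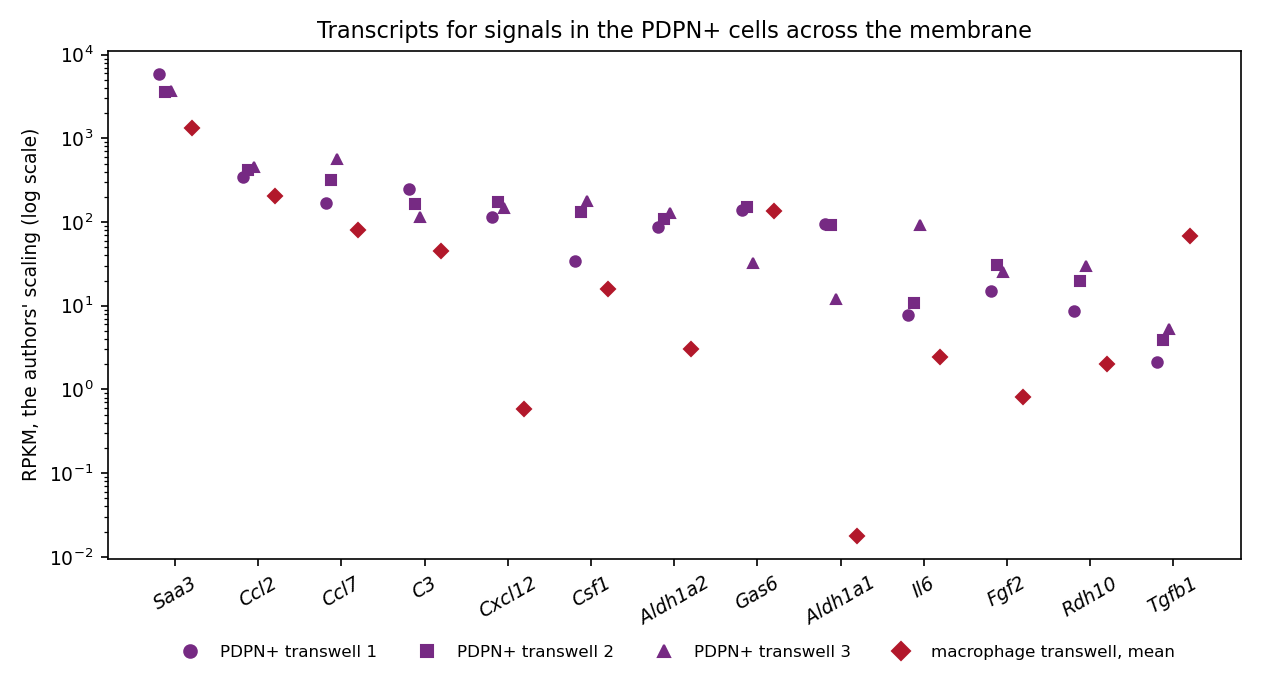
Transcripts of 13 signal proteins and enzymes in PDPN+ cells from transwell culture, 1 marker per replicate, with the mean in the macrophages of the same cultures as a red diamond, in RPKM on a log axis. Aldh1a2 at 86.1 to 130 RPKM and Cxcl12 at 115 to 176 RPKM stand far above the macrophage means of 3.03 and 0.580 RPKM, while Tgfb1 is higher in macrophages.

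RNA of the partner cells was low in the sorted macrophages. Col3a1, a collagen gene of fibroblasts, lay at 8.82, 4.62 and 1.27 CPM in transwell macrophages, at 6.20, 0.0892 and 1.62 CPM in macrophages alone, and at 6874 CPM on average in PDPN+ transwell cells. The summed level of 17 fibroblast markers was 145 to 643 CPM in transwell macrophages, 156 to 566 CPM alone and 13815 to 28063 CPM in PDPN+ transwell cells. The 9 mesothelial markers summed to 0.308 to 0.632 CPM in transwell macrophages and to 0 to 1.20 CPM alone, with Msln, Krt8 and Muc16 at 0 counts in both groups. Krt18, Krt19 and Wt1 had 0 counts in cells alone only, and Wt1 had 17 counts over the transwell libraries. Among fibroblast markers, Pdgfrb had 15 counts in transwell macrophages and 0 alone. No marker of these lists had 0 counts in transwell macrophages only. For comparison, PDPN+ transwell cells carried Rarb at 22.2 CPM, Gata6 at 106 CPM and Ifitm3 at 889 CPM on average, and Selp at 4.72 CPM.

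Markers of mast cells moved with the comparison in 2 of 3 batches. Their 6 genes summed to 43.0, 93.2 and 0.231 CPM in transwell cells and to 8.13, 1.05 and 0.515 CPM alone, and 6 of 6 lay above 0 while 0 were called. Without batch mbb340, 2 of them were called higher, Fcer1a (adjusted p = 0.0368) and Cma1 (adjusted p = 0.0484), beside 1.43% of all genes in that fit. Cpa3, a mast cell protease gene, lay at 15.7, 27.8 and 0.193 CPM against 3.94, 0.625 and 0.294 CPM. In batch mbb340 the mast cell genes summed to under 1 CPM in both groups. The ratio of transwell to alone in that batch was 15.4 for Selp, 6.96 for Rarb, 10.5 for Cass4, 2 for Mcu and 2.13 for Ifitm3. Except in Cass4, it was the lowest ratio of the 3 batches. Eosinophil markers summed to 3.10, 6.67 and 9.13 CPM against 1.09, 0.647 and 2.17 CPM, with Epx at 0 counts in both groups, and dendritic cell markers to 20.4 to 670 CPM against 20.2 to 240 CPM, with Flt3 at 0 counts. Granulocyte markers summed to 14.4 to 64.8 CPM against 4.75 to 84.6 CPM, with S100a9 and Ly6g at 0 counts. T cell markers summed to 19.5 to 130 CPM against 24.1 to 94.7 CPM, B cell markers to 44.1 to 128 CPM against 39.0 to 79.6 CPM, and endothelial markers to 5.25 to 17.9 CPM against 2.25 to 19.0 CPM with Tie1 at 0 counts. The part of these cells in the differences was not tested beyond these values. Pan-macrophage markers had a median log2 fold change of -0.10 over 16 genes, 0 of them called. In the fit without batch mbb340, 2 were called higher (Itgam and Fcgr1), beside 1.43% of all genes. Itgam (CD11b) lay at 3632, 4718 and 3490 CPM against 929, 477 and 2676 CPM (adjusted p = 0.361, and 0.0209 without batch mbb340).

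Direct contact was compared with the membrane in the same fit, which asks whether contact gave other levels than soluble signals. Between co-culture and transwell macrophages 7 genes were called (0.0394%, and 33 or 0.186% with the block), and none of the 5 genes that rose in transwell cells was among them in either fit. Selp lay at 279 to 487 CPM in co-culture, which spans part of the transwell range, and the log2 difference of co-culture over transwell was -0.07 (95% interval -0.85 to 0.71). Rarb averaged 20.0 ± 5.23 CPM in co-culture and 14.9 ± 4.64 CPM in transwell cells (log2 difference 0.41, interval -0.48 to 1.29). Mcu averaged 64.2 ± 16.5 CPM in co-culture and 38.0 ± 8.26 CPM in transwell cells (log2 difference 0.73, interval 0.24 to 1.22, adjusted p = 0.536). The intervals of Selp and Rarb are wide, so equal levels are not shown. The single-gene interval of Mcu lay above 0, toward a higher level in co-culture, although Mcu was not called. Gata6 averaged 55.8 ± 23.3 CPM in co-culture (log2 difference 0.57, interval -0.46 to 1.60).

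ATRA given without stromal cells was compared with transwell culture in the same way. No gene was called between them by edgeR (1042 at an unadjusted p under 0.05, and 0 with the block). Selp averaged 416 ± 179 CPM with ATRA and 370 ± 180 CPM in transwell cells (log2 difference of ATRA over transwell 0.17, interval -0.61 to 0.95), and Rarb averaged 23.9 ± 9.85 CPM with ATRA (log2 difference 0.68, interval -0.21 to 1.57). Other genes of retinoid response and synthesis had higher values with ATRA, although none passed the test over all genes. Cyp26a1 averaged 225 ± 148 CPM with ATRA and 1.87 ± 2.85 CPM in transwell cells (log2 difference 6.89, interval 4.27 to 9.51, adjusted p = 0.152, and 0.0922 with the block). Nrip1 averaged 250 ± 74.8 CPM with ATRA and 87.3 ± 14.3 CPM in transwell cells (log2 difference 1.54, interval 0.99 to 2.08, adjusted p = 0.136, and 0.0875 with the block). Aldh1a2 averaged 31.7 ± 9.95 CPM with ATRA and 6.79 ± 3.14 CPM in transwell cells (log2 difference 2.23, interval 1.18 to 3.29, adjusted p = 0.281). Tgm2 averaged 794 ± 318 and 612 ± 296 CPM (log2 difference 0.40, interval -0.72 to 1.53). The groups did not overlap in Cyp26a1, Nrip1 and Aldh1a2. Ifitm3 lay at 266 to 378 CPM with ATRA, below each transwell library and near the level alone (log2 difference -1.32, interval -1.83 to -0.82, adjusted p = 0.152, and 0.0837 with the block). These intervals are for single genes. In cells analysed ex vivo, given here as levels without a test, Selp averaged 1058 ± 55.6 CPM, Rarb 65.5 ± 14.9 CPM, Cass4 12.5 ± 3.95 CPM, Mcu 56.1 ± 5.17 CPM and Ifitm3 888 ± 62.7 CPM.

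**Figure D5:**
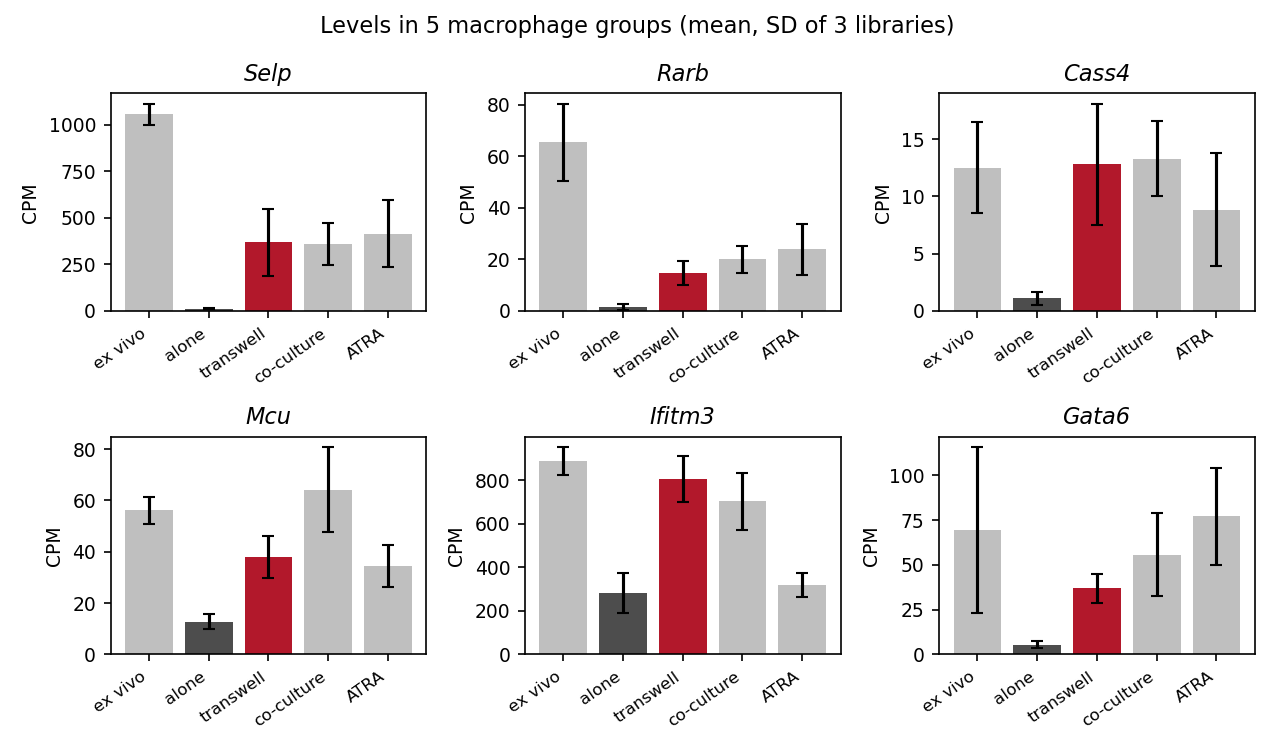
Mean level of 6 genes in 5 macrophage groups, in CPM from 0, with bars for the SD of 3 libraries, transwell cells in red and cells alone in dark grey. The bars for transwell cells stand near those of co-culture for Selp (370 and 360 CPM) and Ifitm3 (805 and 704 CPM), and Ifitm3 with ATRA stands at 320 CPM beside 281 CPM in cells alone.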

How the data were processed

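PolyA RNA of sorted mouse macrophages was measured in 18 libraries, and PDPN+ cells in 12. The deposited tables hold raw counts of uniquely aligning reads for 50764 gene models, per the file headers. Beside them stands the authors' RPKM, per length and adjusted by size factors. The submitters' processing notes name GSNAP and GRCm38. The aligner version, annotation and strand setting are not stated, so overlapping, antisense and near-identical genes cannot be separated with certainty. The 192 gene models with no symbol hold 0.0358% of the counts.

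Counts were tested with edgeR 4.0.16 (R 4.3.3) by the quasi-likelihood test after TMM scaling and edgeR's default filter, with group as the factor over all 18 macrophage libraries (17774 genes, common biological coefficient of variation 0.499) or all 12 PDPN+ libraries. Genes were called at a Benjamini-Hochberg adjusted p under 0.05 over all genes tested, and every adjusted p is from edgeR unless another tool is named. Intervals are 95% intervals of the fitted log2 difference. Levels are CPM, and a ± gives the SD of 3 libraries. Counting floors of 3 counts cover counting error only, since PCR copies of a molecule cannot be told apart here. The edgeR fit was also run on simulated counts with known changes. These held no batch differences, so that run does not show how reliable the calls are.

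Each replicate number has its own value in a label field called mbatch. It was read as a batch, so that numbers pair the libraries, which the labels do not explain further. Deviations from the group mean correlated at r of 0.470, -0.00289 and 0.486 across genes between same-numbered libraries. Between libraries of different numbers r was -0.533 to 0.195, so the value for replicate 2 lay within that range. Deviations of 3 libraries from their own mean depend on each other, so these values do not establish the pairing. The fit with this block, DESeq2 1.42.0, other scaling and filters, and fits without batch mbb340 or 1 library were the alternatives. The counts of every replicate pair differed by more than sampling noise (lowest chi-square per degree of freedom 42.7).

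Named genes are up to 12 called genes per direction with the largest changes (mean of at least 10 CPM, no overlap), up to 8 per direction by p where fewer were called, a fixed set of 14 cavity and retinoid genes, and the 2 members of each of 36 lists with the smallest p. Further genes were added after their values were seen: the 18 genes called with the block alone, chromosomal neighbours, and list members given as examples. The comparison, the lists and the genes were chosen with earlier results of these data known. Gene positions come from GENCODE for GRCm38 and count from 1, and promoters from RefSeq for GRCm38.p6. Promoter positions count from 1 at the start site, with negative numbers before it. The sequence of the Gata6 promoter was not used here. Of the genes called with the block, 2 are counted but not reported here by name.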

Additional observations from a re-analysis of the deposited data

How the results depend on the processing

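Against 5 genes called, all higher, DESeq2 called 262 (162 higher, 100 lower), RLE scaling 3 and no low count filter 3 (all higher), a fit of only the 6 libraries 0, the replicate block 23 (23 higher, 0 lower), and omission of batch mbb340 323 (259 higher, 64 lower). In fits chosen after seeing the data, the replicate block within the 6 libraries called 35 (31 higher, 4 lower) and the replicate block without batch mbb340 called 570 (450 higher, 120 lower). Leaving out 1 library gave 1 to 43 calls, 1 to 32 higher and 0 to 11 lower, and the 43 came without alone replicate 3. The replicate block moved the called members of the hypoxia and glycolysis list from 0 to 1 and left the ligands at 0. The cause of these shifts was not tested. Of 89 named genes, 84 kept their direction under each alternative that gave a value, and 5 turned, with log2 fold changes from -0.23 for Csf1r to 0.55 for Kdr in the reported fit. S100a8, at -0.14, turned to 0.26 with the replicate block, 0.37 with the block within the 6 libraries, 0.70 with the block without batch mbb340, 0.46 without batch mbb340, and 1.39, 0.21 and 0.10 without alone replicate 3, transwell replicate 1 and transwell replicate 2. Cxcr2, at 0.04, turned to -0.04 with the replicate block, -0.20 with the block without batch mbb340, -0.14 without batch mbb340, -0.33 without alone replicate 1 and -0.35 without transwell replicate 3. Leaving out 1 library gave S100a8 -1.08 to 1.39, Cxcr2 -0.35 to 0.25, Csf1r -0.73 to 0.53, Tgfb2 -0.86 to 0.48 and Kdr -0.25 to 1.89. Csf1r turned to 0.53 and 0.14, and Tgfb2 to 0.48 and 0.40, without alone replicate 1 and transwell replicate 3, and Kdr to -0.25 without the latter. With 3 libraries a group, genes that missed the threshold are not shown to be equal.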
